A study of Homo sapiens with 6 samples.

Results

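The alkaline phosphatase family was followed in AGS cells, an established human gastric adenocarcinoma line, after silencing of CTNNB1, the gene of beta-catenin. Its 4 genes, ALPP, ALPG (ALPPL2 in older annotation), ALPI and ALPL, were taken by symbol from the platform annotation, which gave 5 transcript clusters of the 33297 in the table. ALPP had 2 clusters, the other genes 1 each, and 0 clusters paired a member with another gene. Cells were grown in 6-well plates and transfected with Dharmacon siRNA, either against CTNNB1 or a control siRNA, and RNA was taken 48 hours later. Each group held 3 Affymetrix Human Gene 1.0 ST arrays, which the titles call biological replicates, and both groups shared the line, the medium and the transfection. A single cell line was used, the number of siRNAs in the reagent is not stated in the labels, and nothing says that the replicates came from separate passages. The family was picked because ALPP and ALPG were already known to differ between these same arrays, so the differences of its members are given below as a description and without a test.

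Alkaline phosphatases are enzymes on the outer cell surface, held there by a glycosylphosphatidylinositol (GPI) anchor, that remove phosphate from many substrates at alkaline pH and need zinc and magnesium. ALPI is the intestinal form, an enzyme of the enterocyte brush border that also dephosphorylates bacterial lipopolysaccharide. ALPP is the placental form and ALPG the germ cell form, both known to appear out of place in some tumours. ALPL is the tissue-nonspecific form of bone, liver and kidney, which degrades pyrophosphate during mineralisation and handles vitamin B6 phosphate. ALPP, ALPG and ALPI lie next to each other on chromosome 2, and ALPL lies alone on chromosome 1. ALPP and ALPG are near-identical in sequence, so a probe meant for one may also bind RNA of the other, and the share of each in the 3 clusters of these genes is uncertain.

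The 250 bases before the start of ALPP, ALPG and ALPI are shown because these genes lay higher together after CTNNB1 siRNA, while ALPL did not. They are from RefSeq on GRCh38.p14, plus strand, at chr2:232378501-232378750 for ALPP, chr2:232406594-232406843 for ALPG and chr2:232455903-232456152 for ALPI. Capitals mark AGGTCA, the core letters bound by many nuclear receptors, and the longest stretch that all 3 windows share, 15 bases that include an AT-rich TATA-like run.
ALPP: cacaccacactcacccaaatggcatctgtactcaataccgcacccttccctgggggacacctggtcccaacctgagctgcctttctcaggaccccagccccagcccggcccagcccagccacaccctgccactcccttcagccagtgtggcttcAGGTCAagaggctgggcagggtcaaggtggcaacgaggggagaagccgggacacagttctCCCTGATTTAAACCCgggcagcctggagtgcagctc
ALPG: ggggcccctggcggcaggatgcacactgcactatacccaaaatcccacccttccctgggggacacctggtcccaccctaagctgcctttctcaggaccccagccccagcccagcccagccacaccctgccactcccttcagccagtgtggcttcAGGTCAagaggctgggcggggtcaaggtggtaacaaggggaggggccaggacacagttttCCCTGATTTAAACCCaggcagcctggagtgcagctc
ALPI: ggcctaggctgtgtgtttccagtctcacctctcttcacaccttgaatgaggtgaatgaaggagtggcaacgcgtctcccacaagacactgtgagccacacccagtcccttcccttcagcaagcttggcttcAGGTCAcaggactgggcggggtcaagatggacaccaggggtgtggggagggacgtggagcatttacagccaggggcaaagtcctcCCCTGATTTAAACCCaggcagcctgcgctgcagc

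The shared stretch, CCCTGATTTAAACCC, began 36 bases before the start in ALPP and ALPG and 34 bases before it in ALPI. Among 35116 windows of the same length before RefSeq gene starts, searched on both strands, 3 held it, which are those of ALPP, ALPG and ALPI. TTTAAA, which lies inside this stretch, occurred in 11.3% of all windows. AGGTCA stood on the plus strand 96 bases before the start in ALPP and ALPG and 119 bases before it in ALPI, and 12.1% of all windows held it on either strand. CACCC, letters bound by Krüppel-like and SP factors, occurred 3 times in ALPP, 3 times in ALPG and 2 times in ALPI on both strands together, in a set where 54.7% of windows had it. For the TCF/LEF motif, CTTTGAA or CTTTGAT and equally CTTTGTA or CTTTGTT were searched together. None of the 3 windows held any of them, and 12.0% of all windows did. TTTAT, letters bound by CDX factors, was likewise in none of the 3 and in 32.7% of all windows. These counts describe the letters of these windows only.

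After global alignment, 216 of 243 aligned bases (88.9%) were identical between the ALPP and ALPG windows, with an unbroken shared run of 64 bases. ALPP and ALPI shared 156 of 221 (70.6%), and ALPG and ALPI 149 of 223 (66.8%). The 3 annotated windows of ALPL held neither the shared stretch nor AGGTCA, and aligned with the ALPP window at 52.4% to 58.7%. They held no TTTAAA and, like the windows of ALPP, ALPG and ALPI, none of the TCF/LEF letters. CACCC occurred in them 4, 2 and 0 times and TTTAT 1, 1 and 0 times.

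CTNNB1 itself was checked first. Replicates are given in the order 1 to 3 throughout. In log2 expression, the control arrays read 11.92, 11.76 and 11.75 and the silenced arrays 10.27, 10.78 and 10.58. Each silenced array lay below each control array, a log2 difference of -1.27 (SE 0.17), with a limma adjusted p of 0.232 over all tested clusters. Array medians lay between 5.38 and 5.46. CTNNB1 siRNA replicate 1 stood apart, with a Pearson correlation of 0.962 to 0.965 to the other arrays across clusters, against 0.983 to 0.988 among the remaining pairs, so member values are also given without it. Of the markers of the labelled epithelial type, EPCAM had means of 11.38 and 11.51 in control and silenced cells, and KRT8 12.10 and 12.60. KRT18 (10.81 and 11.31), KRT19 (10.06 and 11.02) and CLDN4 (8.04 and 8.71) were also bright. CDH1 was lower, at 6.84 and 6.86, and KRT7, at 5.66 and 5.99, lay below the median level of tested clusters, 6.02. Of the epithelial markers, 7 of 7 measured genes had higher means after CTNNB1 siRNA and 3 (42.9%) had groups that did not overlap, all higher, where 6.81% of all tested clusters were apart and higher. Their summed log2 level was 64.4 to 65.7 on control arrays and 66.9 to 70.2 on CTNNB1 siRNA arrays, and the part of this shift in the values of the alkaline phosphatases was not tested. Summed immune, fibroblast and endothelial markers overlapped between the groups (10.9 to 11.4 and 11.2 to 11.5, 18.8 to 19.8 and 19.5 to 20.3, 12.1 to 12.4 and 12.2 to 13.1). Single markers of these types did differ: the collagen gene COL1A1, at means of 6.56 and 6.92 in control and silenced cells, was apart and higher by 0.36, and the endothelial gene PECAM1, at 3.61 and 4.01, by 0.39. CD3E was apart and higher by 0.06 and VWF apart and lower, at -0.16. The other 6 differed by 0.00 to 0.18 with overlapping groups, among them COL1A2 (5.06 and 5.24), COL3A1 (5.16 and 5.20), PTPRC (2.68 and 2.70) and DCN (2.56 and 2.57). RMA gives no value of 0, and the part of these markers in the results was not tested. In RNA from whole cultures, a change in the number of cells that express a gene and a change in RNA per cell cannot be told apart.

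ALPP, the placental form, was higher after CTNNB1 siRNA by both of its clusters. Cluster 8180197, which the annotation ties to 1 accession, the ALPP transcript of RefSeq, read 6.40, 6.64 and 6.44 on the control arrays and 8.25, 7.66 and 7.75 on the CTNNB1 siRNA arrays. The lowest silenced array lay 1.02 above the highest control array. The log2 difference was 1.39 (SE 0.19), a 2.63-fold higher level, from 6.49 ± 0.13 (SD, n = 3) to 7.89 ± 0.32 (SD, n = 3). Only 9 of the 19460 tested clusters had a larger positive difference. Cluster 8049123, tied to the same transcript and to further accessions (5 in all), read 4.70, 4.39 and 4.80 on control arrays and 5.92, 5.22 and 5.27 on CTNNB1 siRNA arrays. Its groups did not overlap either, with a gap of 0.42. The log2 difference was 0.84 (SE 0.22), from 4.63 ± 0.21 (SD, n = 3) to 5.47 ± 0.39 (SD, n = 3). This cluster was dim, with a mean above 35.2% of tested clusters against 68.1% for the other. RMA compresses differences of dim clusters, and the part of this in the smaller difference was not tested. Which probes each cluster holds is not known.

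The 2 clusters of ALPP therefore gave the same direction and different sizes, 2.63-fold and 1.79-fold. Both peaked on CTNNB1 siRNA replicate 1, which also had the lowest CTNNB1 level and correlated least with the other arrays. Without that array the log2 differences were 1.21 and 0.62. On the control arrays they ranked differently: replicate 2 was the highest of the 3 for cluster 8180197 and the lowest for cluster 8049123.

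ALPG, the germ cell form, read 6.11, 6.74 and 6.25 on control arrays and 7.87, 7.56 and 7.52 on CTNNB1 siRNA arrays (cluster 8049128, tied to 3 accessions). The groups were 0.79 apart. The log2 difference was 1.28 (SE 0.20), a 2.43-fold higher level, from 6.37 ± 0.33 (SD, n = 3) to 7.65 ± 0.19 (SD, n = 3). ALPG followed ALPP cluster 8180197 closely over the arrays: both were highest on CTNNB1 siRNA replicate 1 and, among controls, on replicate 2. Pearson's r between them was 0.979 over the 6 arrays, which include the difference between the groups and may include shared probe binding. ALPG and the dimmer ALPP cluster 8049123 gave 0.819. ALPG differed by 1.17 on the log2 scale when CTNNB1 siRNA replicate 1 was left out.

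ALPI, the brush border enzyme, differed less. It read 6.23, 6.18 and 6.35 on control arrays and 6.76, 6.68 and 6.89 on CTNNB1 siRNA arrays (cluster 8049137). All silenced arrays lay above all controls, with a gap of 0.33. The log2 difference was 0.52 (SE 0.14), a 1.44-fold higher level, from 6.25 ± 0.087 (SD, n = 3) to 6.77 ± 0.11 (SD, n = 3), and 473 tested clusters had a larger positive difference. ALPI had the smallest spread of the family in both groups. Unlike ALPP and ALPG, it was highest on CTNNB1 siRNA replicate 3, and leaving out replicate 1 left its log2 difference at 0.53. Over the 6 arrays, Pearson's r of ALPI was 0.912 with ALPP cluster 8180197, 0.855 with cluster 8049123 and 0.87 with ALPG. These values include the difference between the groups. The 95% interval of the log2 difference was 0.21 to 0.84 for ALPI, 0.96 to 1.82 and 0.34 to 1.34 for ALPP clusters 8180197 and 8049123, and 0.83 to 1.74 for ALPG. Whether the members differ from each other was not tested, since the same contrast chose the family.

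**Figure D1:**
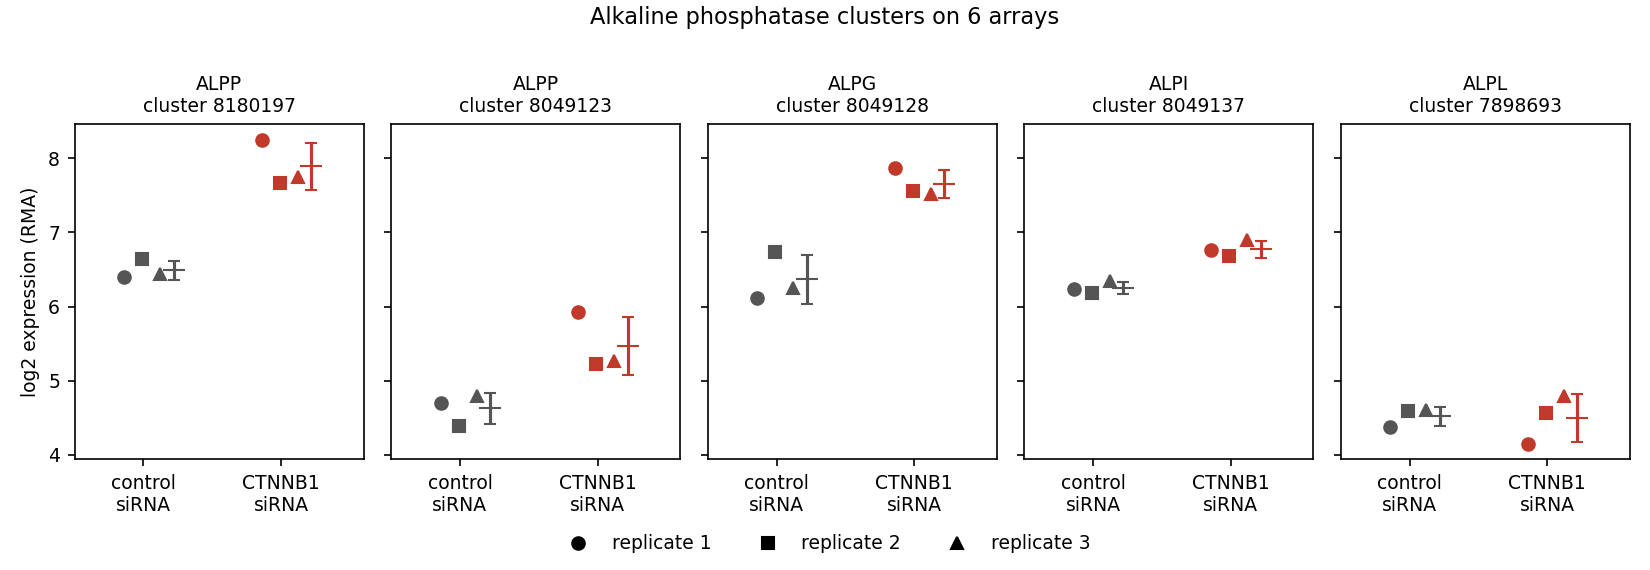
Log2 expression (RMA) of the 5 alkaline phosphatase clusters on each array, control siRNA in grey and CTNNB1 siRNA in red, with replicates by symbol and the mean ± SD (n = 3) beside them. The groups are fully apart for both ALPP clusters, ALPG and ALPI, while the ALPL arrays overlap between 4.15 and 4.79.

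ALPL, the tissue-nonspecific form, showed no separation. It read 4.37, 4.59 and 4.60 on control arrays and 4.15, 4.56 and 4.79 on CTNNB1 siRNA arrays (cluster 7898693), so that the lowest and the highest of the 6 values were both from silenced cells. The means were 4.52 ± 0.13 (SD, n = 3) and 4.50 ± 0.32 (SD, n = 3), a log2 difference of -0.02 (SE 0.19) with a 95% interval of -0.46 to 0.41. The cluster was dim, above 27.1% of tested clusters, where a moderate change could be compressed. Its sign also turned with the arrays used: the log2 difference was 0.15 without CTNNB1 siRNA replicate 1 and -0.17 without replicate 3. ALB, BGLAP, IBSP, APOB and SP7, genes of liver or bone where ALPL is abundant, were listed as markers. Of these, 4 of 5 had a tested cluster, and the groups overlapped for all 4. The means in control and silenced cells were 5.87 and 6.22 for SP7, a log2 difference of 0.34, 4.07 and 4.10 for APOB, 3.64 and 3.60 for IBSP, and 2.44 and 2.58 for ALB. Their summed log2 level was 16.0 to 16.1 on control arrays and 16.1 to 17.0 on CTNNB1 siRNA arrays.

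So 4 of the 5 clusters of the family, and 3 of its 4 genes as annotated, lay higher on all silenced arrays than on all control arrays. ALPP and ALPG may not be separate readings, since their probes may bind RNA of either gene. Probe sequences were not available, so binding of ALPP or ALPG RNA by the ALPI cluster was not tested either. Among all 19460 tested clusters, 6.81% were apart in that direction and 6.80% in the other, 13.6% in all. At 1.5-fold or more, 1.15% were apart and higher, a bar that both ALPP clusters and ALPG passed and ALPI did not. Nothing is read from these counts, because the family was chosen on this contrast. In limma, 1 of 19460 clusters passed an adjusted p of 0.05 higher (0.00514%) and 0 lower, with 1098 (5.64%) at an unadjusted p under 0.05. The number past the threshold was 10 without CTNNB1 siRNA replicate 1 and 0 without any 1 of the others.

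**Figure D2:**
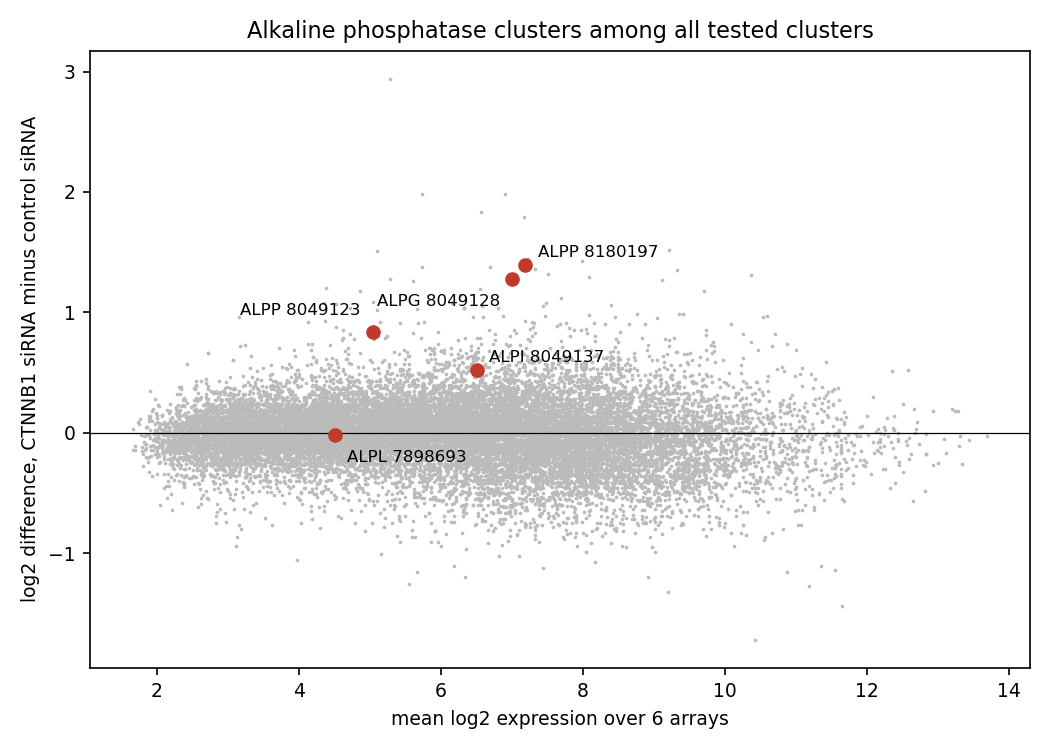
Log2 difference (CTNNB1 siRNA minus control siRNA) against mean log2 expression over 6 arrays for all tested clusters in grey, with the 5 alkaline phosphatase clusters in red. ALPP 8180197 (1.39) and ALPG (1.28) lie at the upper edge of the cloud, ALPI (0.52) nearer its body and ALPL (-0.02) at its middle.

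The differences of the family were followed through other choices of arrays and scaling. Over the fits that left out 1 array, ALPP cluster 8180197 lay between 1.21 and 1.51, cluster 8049123 between 0.62 and 0.96, ALPG between 1.16 and 1.47, and ALPI between 0.47 and 0.57. Weighting arrays by quality, which gave CTNNB1 siRNA replicate 1 the lowest weight, gave 1.24, 0.64, 1.18 and 0.50 in the same order. Shifting the arrays to a common median gave 1.38, 0.82, 1.27 and 0.51, and a further quantile normalisation 1.42, 0.82, 1.31 and 0.53. These genes kept a positive difference in each of these settings. Leaving out or weighting arrays could not turn the sign, because every silenced array already lay above every control array. Only the size of the difference is therefore informative here.

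**Figure D3:**
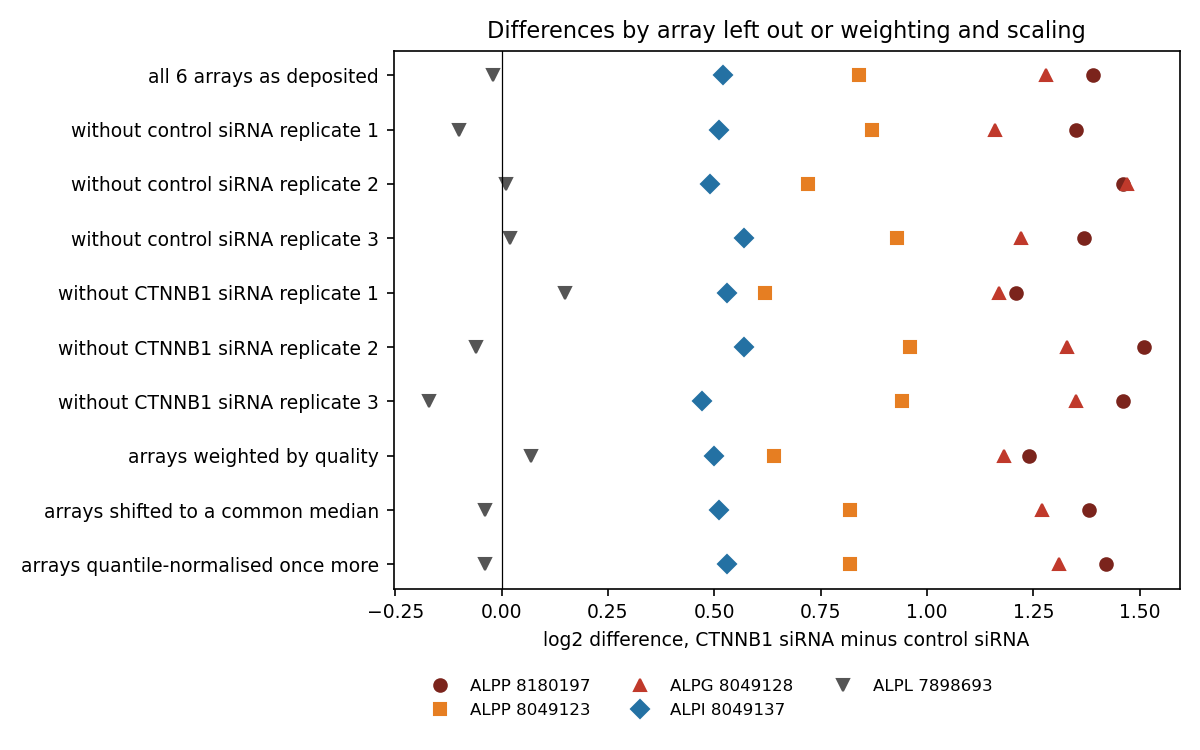
Log2 difference of each alkaline phosphatase cluster (x axis) with all 6 arrays, with each array left out in turn, and with weighting or rescaling of the arrays (y axis). ALPP, ALPG and ALPI, whose groups are fully apart, stay above 0 in every row, as they must when arrays are left out or weighted. Their lowest value is 0.47 for ALPI, while ALPL moves between -0.17 and 0.15.

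The genes around the family on the chromosomes gave a local comparison. The 5 protein-coding genes on each side of the ALPP, ALPG and ALPI group in RefSeq order were taken, and 9 of these 10 had a tested cluster. Their log2 differences ran from -0.44 to 0.18, with a median of -0.042, below the 0.52 of ALPI. DIS3L2, an exoribonuclease gene just before ALPP, differed by 0.15 (SE 0.18), and ECEL1, an endopeptidase-like gene just after ALPI, by -0.04 (SE 0.13). ECEL1 read 5.61, 5.60 and 5.41 on control arrays and 5.49, 5.45 and 5.56 on CTNNB1 siRNA arrays, so the groups overlapped. Further out, the acetylcholine receptor subunit genes CHRND and CHRNG differed by 0.18 (SE 0.15) and 0.08 (SE 0.13). Of the 9, 0 were apart and higher, where 6.81% of all tested clusters were, so this count says little. TIGD1 and PTMA, 5 genes away on either side, were apart and lower, as were 6.80% of all tested clusters. Their log2 differences were -0.44 (SE 0.20) and -0.26 (SE 0.17), with 0.06 and 0.03 between the nearest arrays. PTMA has processed pseudogenes that make its probes uncertain. No neighbour at either locus passed limma, and 0 had an unadjusted p under 0.05, against 5.64% of all tested clusters. Around ALPL, 9 of 10 neighbours were tested, with log2 differences from -0.25 to 0.45 and a median of 0.17. Of these, 0 were apart, against 13.6% of all tested clusters.

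**Figure D4:**
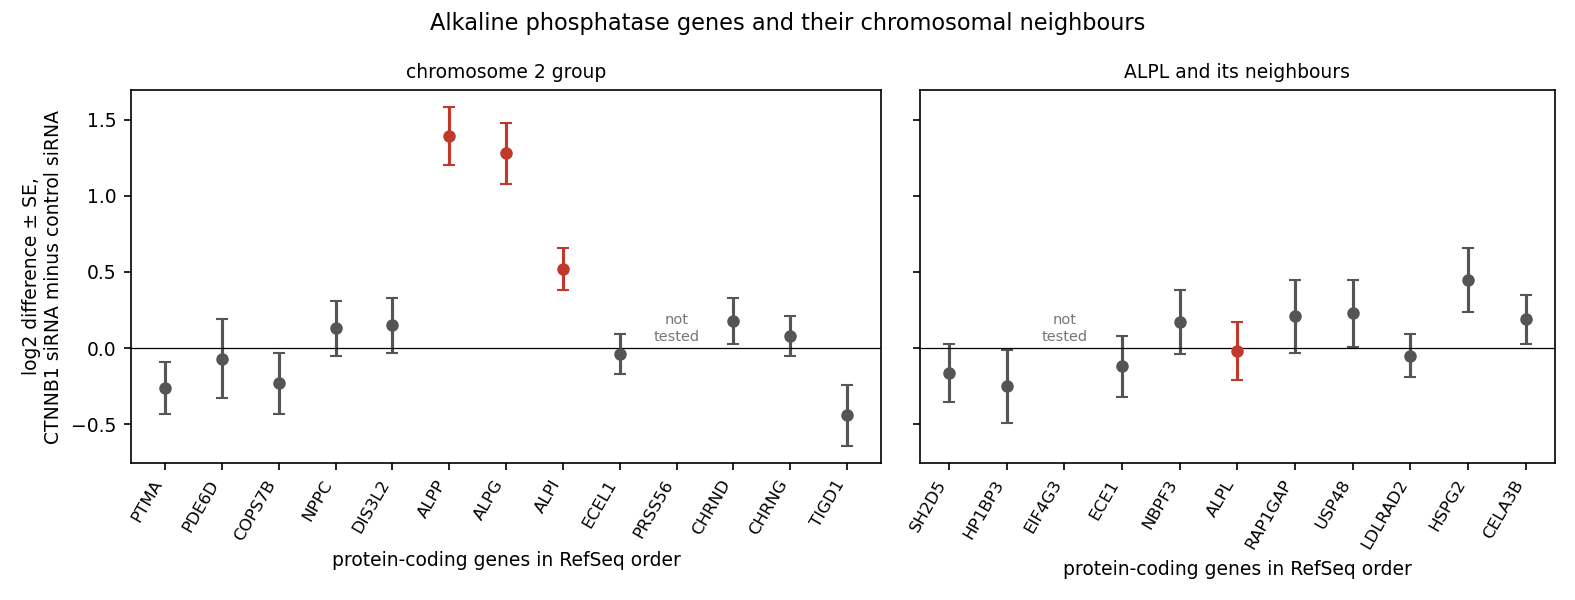
Log2 difference ± SE (CTNNB1 siRNA minus control siRNA, n = 3 arrays each) for protein-coding genes in RefSeq order around ALPP, ALPG and ALPI (left) and around ALPL (right), alkaline phosphatases in red, with ALPP shown by cluster 8180197. The 3 red points on the left stand at 1.39, 1.28 and 0.52, above neighbours that lie between -0.44 and 0.18.

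Other genes followed the same course over the arrays. Among the 40 clusters that differed by at least 1 on the log2 scale and were at or above the median level, the likeness to each family cluster was ranked by Pearson's r over the 6 arrays. Candidates were chosen for a large difference, so high values of r are built in for this description. For ALPP cluster 8180197 the closest were MUC13, which encodes a cell-surface mucin of the gut (r = 0.999), PTPRH, a receptor tyrosine phosphatase gene (0.985), and LGALS4, a galectin gene of gut epithelium (0.983). MUC13 read 9.58, 9.88 and 9.69 on control arrays and 11.37, 10.79 and 10.91 on CTNNB1 siRNA arrays, the same order of arrays as ALPP. For ALPG they were MUC13 (0.982), the phosphatase gene DUSP1 (0.979) and EMP1, an epithelial membrane protein gene (0.960). For ALPI they were PI3, the gene of the protease inhibitor elafin (0.980), EMP1 (0.950) and LGALS4 (0.946). PI3 was highest on CTNNB1 siRNA replicate 3 (8.12, 7.62 and 8.28 on replicates 1 to 3), as ALPI was. For ALPP cluster 8049123 they were APOL1, an apolipoprotein gene (0.969), TFF1 (0.963), a trefoil peptide gene, and KLF4 (0.950).

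Genes that serve or resemble the family were read from 9 lists. Of 134 list genes with a tested cluster, 0 passed limma over all genes. An unadjusted limma p under 0.05 was seen for 18, 16 higher and 2 lower. Over all 18417 genes, 1045 had such a p, 565 of them higher. Of the 18, 7 came from the list of GPI-anchored surface proteins. The lists were chosen with earlier results of these data known, so nothing is read from this split. Over all 18417 genes, 13.8% had groups apart and the median log2 difference was -0.0052.

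The enzymes that build the GPI anchor and attach it were split in direction. Of 28 measured genes, 12 were higher and 16 lower, with a median log2 difference of -0.12, and 14.3% had groups apart. PIGC, a subunit of the first enzyme of the pathway, differed by 0.53 (SE 0.23) and by 0.33 without CTNNB1 siRNA replicate 1, and PIGQ, of the same enzyme, by 0.31 (SE 0.15). PIGN, which adds a side phosphoethanolamine, differed by 0.22 (SE 0.14). Each had a limma adjusted p of 0.816. Leaving out the third control array gave a median of -0.041, and leaving out the third silenced array -0.044.

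The listed proteins that carry such an anchor were mostly higher. This list holds only a part of such proteins and was chosen with earlier results of these data known. Nothing is read from it about anchored proteins in general. Of 22 measured genes, 16 were higher and 6 lower, with a median of 0.31, 8 apart and higher and 1 apart and lower (40.9% in all). CEACAM5, carcinoembryonic antigen, read 8.13, 9.01 and 8.80 on control arrays and 9.23, 10.27 and 10.48 on CTNNB1 siRNA arrays, a log2 difference of 1.35 (SE 0.36). CEACAM6 differed by 1.18 (SE 0.30) and the carboxypeptidase gene CPM by 1.09 (SE 0.30), the latter among dim clusters. Each of these 3 genes was lowest among silenced arrays on replicate 1, where ALPP and ALPG were highest. None passed limma (adjusted p = 0.816 each), and 7 of the 22 had an unadjusted p under 0.05.

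Zinc enters these enzymes through transporters of the secretory pathway. SLC30A6 differed by -0.42 (SE 0.25) and SLC30A7 by -0.32 (SE 0.25), with overlapping groups, and without CTNNB1 siRNA replicate 1 by -0.13 and -0.04. The median of the 3 transporters was -0.32, and -0.063 without that array. None of the 3 zinc transporters was apart or passed limma (adjusted p = 0.816 for both), and 0 had an unadjusted p under 0.05.

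Among 19 genes of phosphate, pyrophosphate and extracellular nucleotides, 10 were higher and 9 lower, with a median of 0.012. SLC20A1, a phosphate importer of the cell surface, read 8.96, 8.74 and 9.04 on control arrays and 9.59, 9.30 and 9.44 on CTNNB1 siRNA arrays, a log2 difference of 0.53 (SE 0.15). The adenosine deaminase gene ADA differed by 0.37 (SE 0.14) and the nucleoside transporter gene SLC29A1 by -0.23 (SE 0.14), also with groups apart. None of these 3 genes passed limma (adjusted p = 0.816 each). Vitamin B6 genes had 2 of 5 genes measured, PLPBP at -0.17 (SE 0.15) and AOX1 at 0.05 (SE 0.21), with overlapping groups.

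Acid phosphatases and related enzymes, which share the kind of reaction but not the fold, showed no separation. Of 7 measured, 2 were higher and 5 lower, with a median of -0.093, and 0 were apart. ACP3, prostatic acid phosphatase, differed by 0.29 (SE 0.30), and MINPP1, an inositol polyphosphate phosphatase, by -0.23 (SE 0.23).

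Brush border genes, the company of ALPI in the enterocyte, had 17 of 22 measured members higher and 5 lower, with a median of 0.084 and 5 apart and higher, 22.7% in all. Over all genes, 9041 of 18417 were higher. Only 5 of the 22 lay at or above the median level of tested clusters, so most of the list was dim. CDHR5, a protocadherin of the microvillus tips, read 6.18, 6.79 and 6.85 on control arrays and 7.15, 7.33 and 7.51 on CTNNB1 siRNA arrays, a log2 difference of 0.73 (SE 0.21). The glucose transporter gene SLC5A1 differed by 0.55 (SE 0.17) and the aminopeptidase gene ANPEP by 0.30 (SE 0.15), both dim. None of these 3 passed limma (adjusted p = 0.816 each). SI, the sucrase-isomaltase gene of mature enterocytes, named after its values were seen, stayed between 2.19 and 2.49 on all arrays. Its mean lay above only 1.91% of tested clusters, where a fall or a small rise could not be seen. The median of the list was 0.15 without CTNNB1 siRNA replicate 1, 0.16 with weighted arrays and 0.22 without the dimmest 40% of clusters, where fewer genes are left.

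Of 9 measured intestinal transcription factors, 4 were higher and 5 lower, with a median of -0.0052. In limma, 3 had an unadjusted p under 0.05, all higher, against 1045 of all 18417 genes. CDX2 and GATA6, named after their values were seen, differed by 0.47 (SE 0.19) and -0.39 (SE 0.27), both with overlapping groups. KLF4, known to activate the ALPI promoter, read 7.10, 7.19 and 7.11 on control arrays and 8.75, 7.88 and 8.13 on CTNNB1 siRNA arrays. Its log2 difference was 1.12 (SE 0.22; limma adjusted p = 0.747), and 0.87 without CTNNB1 siRNA replicate 1. CREB3L3, a liver and intestine factor, differed by 1.83 (SE 0.44; limma adjusted p = 0.816), with 6.38, 7.97 and 8.11 on the silenced arrays. CREB3L3 was lowest of these on replicate 1 and KLF4 highest there.

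Genes of placenta and germ cells, where ALPP and ALPG normally belong, were split in direction. Of 23 measured, 12 were higher and 11 lower, with a median of 0.018, and 8.7% had groups apart. HSD3B1, a placental steroid dehydrogenase gene, read 5.19, 5.11 and 5.39 on control arrays and 5.78, 6.20 and 6.43 on CTNNB1 siRNA arrays. Its log2 difference was 0.91 (SE 0.19; limma adjusted p = 0.766). DDX4, a germ cell helicase gene, differed by -0.42 (SE 0.18; limma adjusted p = 0.816) at the dim end of the scale. CGA and GCM1, a trophoblast hormone subunit and factor named after their values were seen, each differed by 0.03. Both were dim, above 26.1% and 5.34% of tested clusters, which limits what they can show. TFAP2A, at -0.79 (SE 0.46), and PLAC1, at 0.35 (SE 0.17), named in the same way, moved further, with overlapping groups. Without CTNNB1 siRNA replicate 1 they differed by -0.17 and 0.24.

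**Figure D5:**
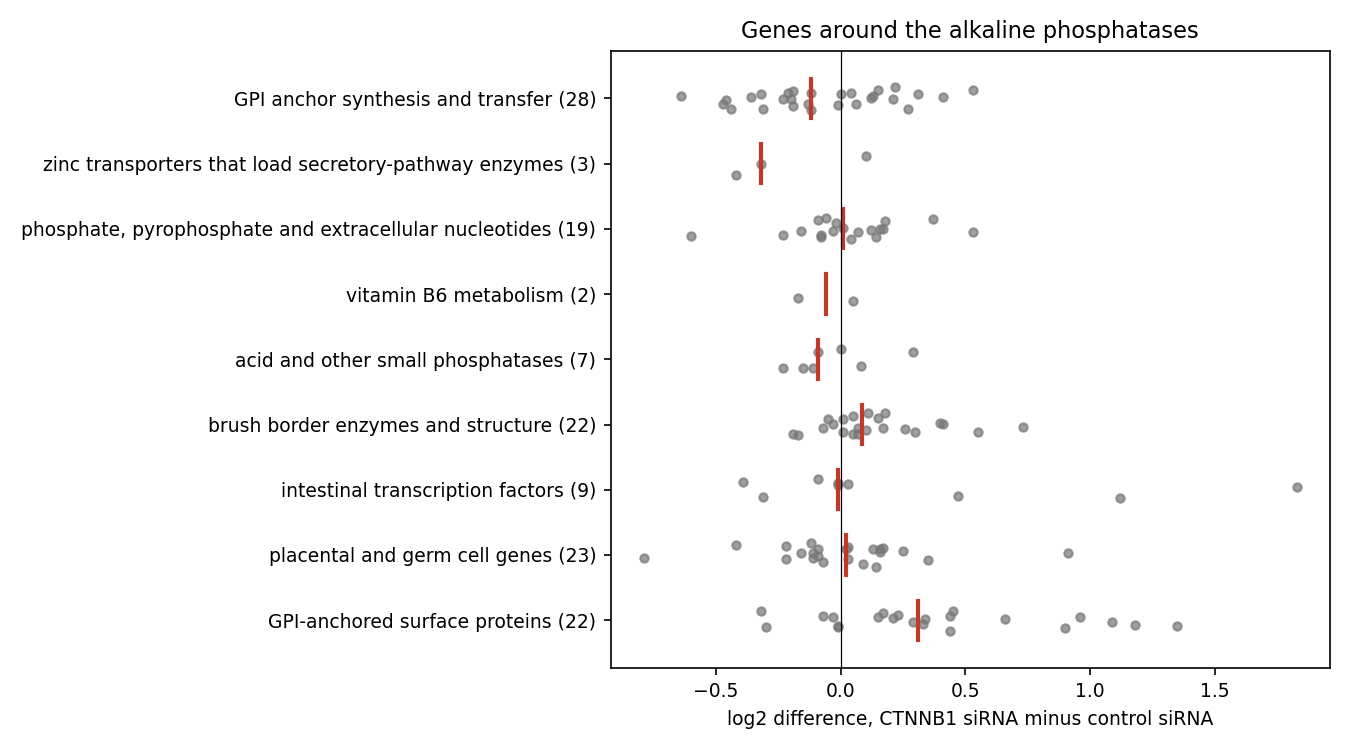
Log2 difference (CTNNB1 siRNA minus control siRNA, x axis) of each measured gene in the 9 lists, with the number of genes in brackets and the list median as a red bar. Medians run from -0.32 for the 3 zinc transporters to 0.31 for GPI-anchored surface proteins.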

How the data were processed

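Expression was measured in 6 AGS samples, 3 per siRNA group, from 500 ng of total RNA each, on arrays whose number limits the precision. The authors deposited RMA log2 values, 1 per transcript cluster and array. The submitters' processing notes name Affymetrix Expression Console 1.1 for this step. Build and summarisation settings are not given in the sources used. RMA equalises the arrays, which hides a change shared by all genes. No 2 arrays shared more than 43 identical values.

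Clusters paired with exactly 1 symbol by the platform annotation (19460 of 33297) were fitted with limma 3.58.1 (lmFit, eBayes) in R 4.3.3, 2-sided, with Benjamini-Hochberg adjustment and a threshold of 0.05. Symbols were updated through RefSeq identifiers of GRCh38.p14 for 19429. Standard errors are those of this fit. A check on simulated data, with independent noise equal on all arrays, required only that the added mean difference was recovered. It does not vouch for the standard errors, given that CTNNB1 siRNA replicate 1 stood apart. Where a gene of a list had several clusters, the brightest was used, and every cluster was used for the family. Apart means that all arrays of one group lie above all of the other. P-values measure only the spread between these samples, which may be technical.

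Promoter windows came from RefSeq (4 of 4 genes matched) and were aligned with Biopython 1.88 (match 2, mismatch -1, gap opening -5, extension -1, end gaps free). Motifs were picked after the sequences were seen. Protein sequences were not used here. Members and lists were chosen with earlier results of these data known. List genes were named by rule, except where the text says that they were named after their values were seen. The rule took those past the threshold, otherwise up to 3 apart with the largest differences, otherwise up to 2 with the largest differences. Alternatives were a replicate block, array weights, a common median, quantile normalisation, trend and robust moderation, all clusters, no dim clusters, and each array left out. Same-numbered arrays were not taken as pairs.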

Additional observations from a re-analysis of the deposited data

How the results depend on the processing

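Over the 50 alternatives run for the 5 alkaline phosphatase clusters, the log2 difference of ALPP lay between 1.21 and 1.51 for cluster 8180197. It lay between 0.62 and 0.96 for ALPP cluster 8049123, 1.16 and 1.47 for ALPG, 0.47 and 0.57 for ALPI, and -0.17 and 0.15 for ALPL. Leaving out 1 array can move a difference only by a part of the spread of its group. A replicate block cannot move it in this balanced design. The number of genes past the threshold in limma, 1 in the main analysis, was 13 with weighted arrays and 0 with the arrays at a common median, without the dimmest 40%, or with all clusters tested (1163, 670 and 1569 at an unadjusted p under 0.05). It ranged from 0 to 10 when 1 array was left out. With the replicate number as a block it was 0 (1123 at an unadjusted p under 0.05), and the member differences were the same. Deviations of same-numbered arrays from their group means correlated at 0.0922, 0.120 and 0.0980. By these deviations each of the 6 arrays correlated best with its own number, a hint from the data only. Centring lowers the correlations within a group, so the match is mainly a choice among arrays of the other group. Before centring, control replicate 1 correlated better with control replicate 3 (0.986) than with CTNNB1 siRNA replicate 1 (0.964). The share of clusters with groups apart was 22.3% to 25.7% with 1 array left out, where fewer arrays must be apart. The median of the GPI anchor list lay between -0.19 and -0.041 with 1 array left out. That of the brush border list lay between 0.033 and 0.15, and was 0.16 with weighted arrays and 0.22 without the dimmest 40%. The other list medians moved by less than the spread between replicates, and 15 of 108 list values changed sign, all in lists with a median between -0.06 and 0.018. The cause of these shifts was not tested. Dim clusters, ALPL among them, limit what can be seen of small changes.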
